A study of Mus musculus with 6 samples.

Results

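Gp1bb, Ppbp, Alox12, Thbs1 and Gng11 are genes known from megakaryocytes and platelets, and they were followed by symbol through the bone marrow (BM) mRNA-seq of Phc2-deficient mice. The deposited table of expression held all 5 of them among 621 genes. The samples were unsorted BM cells from femurs and tibias of C57BL/6 mice aged 8 weeks. There were 3 libraries from KO mice (KO-BM4, KO-BM8 and KO-BM9) and 3 from WT mice (WT-BM1, WT-BM3 and WT-BM7). Both genotypes were bred from Phc2+/- parents, and the labels name no treatment for either. Sample titles and sources call the KO mice Phc2 knockouts, whereas their genotype field calls them Phc2 heterozygotes. Phc2 itself was not analysed here, so the genotype was not checked on its transcript. Phc2 encodes a subunit of a Polycomb repressive complex, and the comparison asks how BM transcripts differ without it.

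Megakaryocytes are the large polyploid cells of BM that shed platelets into the blood sinusoids. They load platelets with receptors for the injured vessel wall, with granules of chemokines and adhesive glycoproteins, and with enzymes that make lipid mediators. They are rare among BM cells, so their transcripts are a small part of BM RNA. In bulk RNA, fewer cells of a type and less RNA per cell cannot be told apart. Of 14 defining markers of the lineage, the table holds 4, Ppbp, Gp1bb, Treml1 and Tubb1, and all 4 were above 0 in every library. Pf4, Itga2b and the other defining markers were not analysed here.

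The table was restricted by the authors, on these same libraries, to genes that differed 2-fold or more when some KO library was set against some WT library, and all 621 genes met this in 1 or more of the 9 possible pairings. These pairings were counted on the normalized log2 values of the authors, which lie near log2(FPKM + 1). On that scale the fold reached 2 in KO over WT in 2 pairs and in WT over KO in 2 other pairs for Gp1bb. It reached 2 in WT over KO in 4 pairs for Ppbp, 3 pairs for Thbs1 and Gng11 and 2 pairs for Alox12, and in KO over WT in 1 pair for Ppbp. In plain FPKM, Alox12 and Gng11 reached 2-fold in further pairs, Alox12 also in KO-BM4 over WT-BM7. Comparisons between KO and WT in this table are therefore not independent of how its genes were chosen. The libraries also differed in Xist, the noncoding RNA of the inactive X chromosome in female cells. Xist was at 74.6 to 113 FPKM (fragments mapped to a gene, scaled for exon length and for all mapped fragments of the library) in KO-BM4, WT-BM1 and WT-BM3, and below 1 FPKM in KO-BM8, KO-BM9 and WT-BM7. The first set is called the libraries with Xist below.

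Ppbp, Alox12 and Gng11 gave nearly the same picture, with high levels in the libraries with Xist and low levels in the other libraries, in both genotypes. Gp1bb and Thbs1 each gave another picture. No gene of the 5 separated KO from WT.

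Ppbp encodes pro-platelet basic protein, the precursor of the chemokine CXCL7 that platelets store in alpha granules. It lies on chromosome 5 of GRCm38 from 90768518 to 90770063, beside Pf4 and Cxcl5 in the cluster of CXC chemokine genes. Ppbp was at 24.6, 7.78 and 9.30 FPKM in KO-BM4, KO-BM8 and KO-BM9, and at 29.1, 32.5 and 11.6 FPKM in WT-BM1, WT-BM3 and WT-BM7. The KO-BM4 library thus lay with the high WT libraries, and WT-BM7 was nearer to the low KO libraries, so that the genotypes overlapped. The mean was 13.9 ± 9.32 FPKM in KO BM and 24.4 ± 11.2 FPKM in WT BM (SD, n = 3 each). For Ppbp, the log2 fold change on log2(FPKM + 1) was -0.82 (standard error 0.54, 95% confidence interval -1.94 to 0.30, adjusted p = 0.598 from limma).

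Alox12 encodes the arachidonate lipoxygenase of platelets, which makes hydroperoxides of arachidonic acid. It lies on chromosome 11 from 70241457 to 70255380. Alox12 was at 2.83, 0.931 and 0.923 FPKM in KO-BM4, KO-BM8 and KO-BM9, and at 2.67, 3.54 and 1.17 FPKM in WT-BM1, WT-BM3 and WT-BM7. As with Ppbp, KO-BM4 and the WT libraries WT-BM1 and WT-BM3 were high, and the genotypes overlapped. The mean was 1.56 ± 1.1 FPKM in KO BM and 2.46 ± 1.2 FPKM in WT BM. The log2 fold change of Alox12 was -0.45 (standard error 0.47, adjusted p = 0.598 from limma), on a scale that understates changes near 1 FPKM.

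Gng11 encodes a gamma subunit of heterotrimeric G proteins, which carry the signal of thrombin and other receptors into the platelet. It lies on chromosome 6 from 4003987 to 4008445. Gng11 was at 4.79, 2.95 and 2.20 FPKM in the 3 KO libraries in the same order, and at 6.19, 7.63 and 2.64 FPKM in the 3 WT libraries. WT-BM7 fell between the low KO libraries KO-BM9 and KO-BM8. The mean was 3.31 ± 1.34 FPKM in KO BM and 5.49 ± 2.57 FPKM in WT BM. The log2 fold change of Gng11 was -0.54 (standard error 0.48, adjusted p = 0.598 from limma).

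Gp1bb encodes the beta chain of glycoprotein Ib, a part of the platelet receptor for von Willebrand factor. It lies on the minus strand of chromosome 16 from 18620319 to 18622403. Gp1bb was at 17.0, 1.53 and 1.62 FPKM in KO-BM4, KO-BM8 and KO-BM9, and at 2.55, 2.80 and 14.2 FPKM in WT-BM1, WT-BM3 and WT-BM7. A single library of each genotype was high, KO-BM4 and WT-BM7, and the other 4 lay between 1.53 and 2.80 FPKM. The highest library was 11.1 times the lowest, a wider spread than in 88.9% of the 621 genes. Mean FPKM was 6.73 ± 8.92 in KO BM and 6.50 ± 6.63 in WT BM, whereas the log2 fold change of Gp1bb was -0.26 (standard error 0.67, adjusted p = 0.792 from limma), so that its direction differed between the scales. It was also 0.42 without WT-BM7, 0.22 without KO-BM8 and 0.20 without KO-BM9. In GENCODE vM21, 91.1% of the exonic bases of Gp1bb are also exonic in Sept5, a septin gene on the same strand. Sept5 was not analysed here, and how reads of the shared bases were assigned between these genes is not stated, so the FPKM of Gp1bb is uncertain.

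Thbs1 encodes thrombospondin 1, an adhesive glycoprotein of platelet alpha granules that monocytes, endothelial cells and fibroblasts secrete as well. It lies on chromosome 2 from 118111876 to 118127133, where 3.42% of its exonic bases overlap an antisense noncoding RNA gene. Thbs1 was at 16.3, 25.4 and 28.4 FPKM in KO-BM4, KO-BM8 and KO-BM9, and at 20.5, 21.7 and 91.6 FPKM in WT-BM1, WT-BM3 and WT-BM7. WT-BM7 was far above the other 5 libraries, which lay within 16.3 to 28.4 FPKM. The mean was 23.4 ± 6.26 FPKM in KO BM and 44.6 ± 40.7 FPKM in WT BM. The log2 fold change of Thbs1 was -0.58 (standard error 0.56, adjusted p = 0.598 from limma), and it was 0.11 without WT-BM7.

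**Figure D1:**
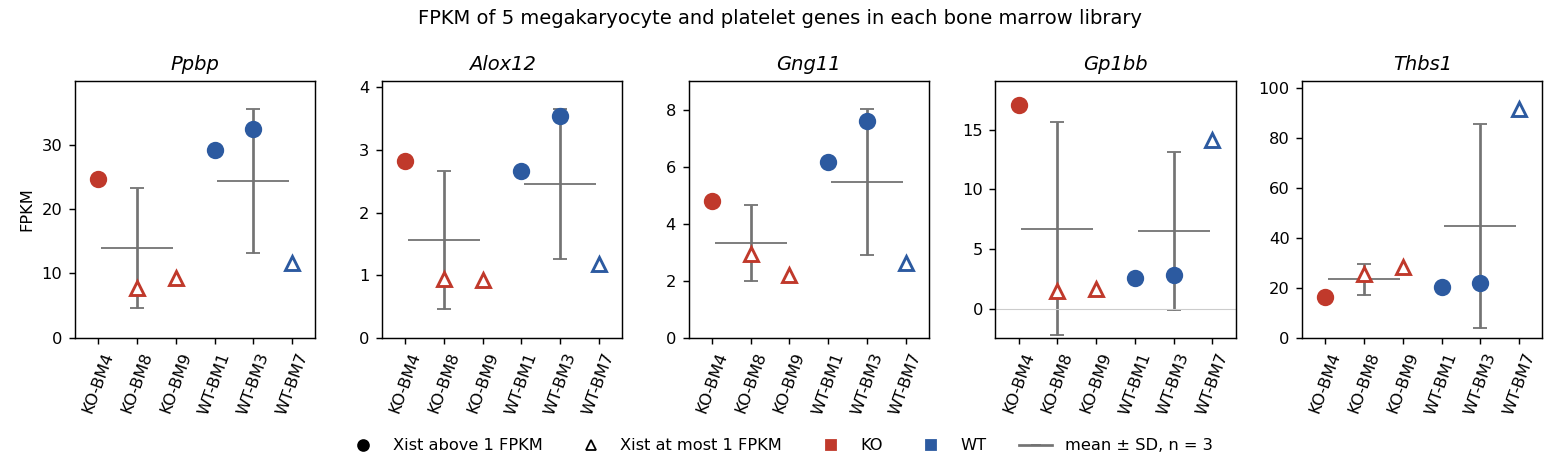
FPKM (y axis, linear) of each gene in the 3 KO libraries (red) and the 3 WT libraries (blue), with filled circles for libraries with Xist above 1 FPKM, open triangles for the others, and grey bars for the mean ± SD of each genotype. Ppbp, Alox12 and Gng11 are high in KO-BM4, WT-BM1 and WT-BM3, Gp1bb is high in KO-BM4 and WT-BM7, and Thbs1 is high in WT-BM7.

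By limma, 0 of the 5 genes were past the threshold of 0.05 on the adjusted p, as were 0 of the 621 genes (0%). At an unadjusted p under 0.05, 8 genes of the table (1.29%) were higher and 6 (0.966%) lower in KO, with 0 of the 5 among them. Quantile-normalized values gave 22 higher and 4 lower genes, median-scaled values 18 and 4, and a fit with a term for Xist 20 and 10. The KO and WT libraries overlapped in all 5 genes. They did not overlap in 7.25% of the 621 genes, 5.96% with KO higher and 1.29% with KO lower. Each of the 5 had a lower mean log2(FPKM + 1) in KO, as did 61.8% of the 621 genes. The median log2 fold change was -0.54 over the 5 genes and -0.35 over the 621 genes. The median over all genes was -0.18 after quantile normalization and -0.23 after scaling the libraries to the same median, and the 5 fold changes kept their sign under both. Without KO-BM4, the genotypes no longer overlapped in Gp1bb, Ppbp and Alox12, as in 23.5% of the 621 genes, and without WT-BM7 they no longer overlapped in Ppbp and Gng11, as in 66.8% of the 621 genes.

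**Figure D2:**
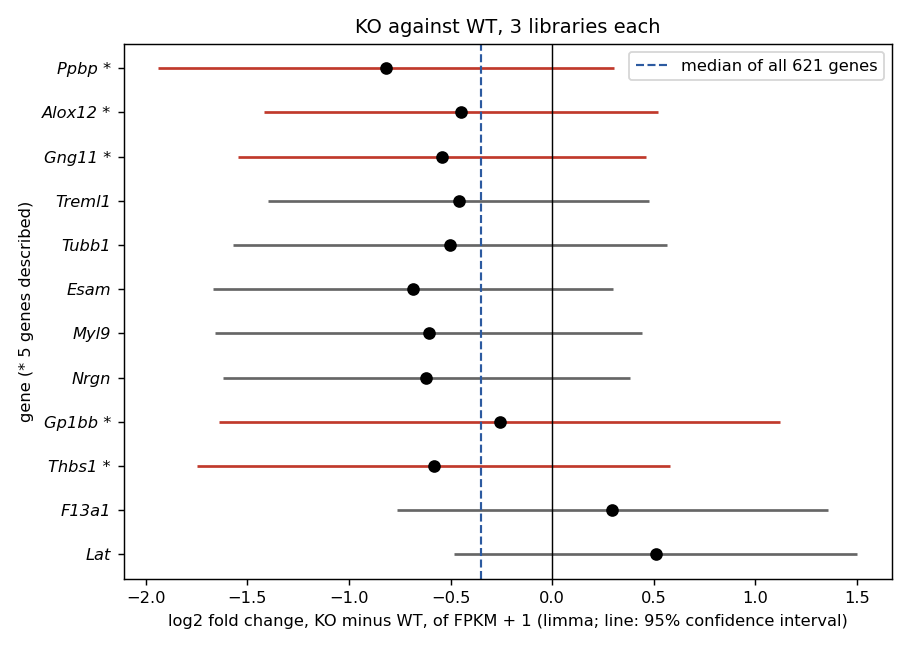
Log2 fold change of KO minus WT on log2(FPKM + 1) (x axis), with 95% confidence intervals from limma, for the 5 genes (red lines) and the 7 further genes of the megakaryocyte and platelet list (grey lines). Every interval spans 0, and the dashed line marks the median of all 621 genes at -0.35.

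The members were then compared by the order in which they put the 6 libraries. Ppbp and Alox12 ordered 13 of the 15 pairs of libraries alike, and so did Ppbp and Gng11, and Alox12 and Gng11. The WT-BM3 library was the highest by all 3. In 12 of the 15 pairs all 3 genes gave the same order. Kendall's coefficient of concordance, which runs to 1 when all genes give the same order, was 0.91 over these 3 genes, which were grouped after their values were seen. It was 0.35 over all 5 genes, which gave the same order in 2 of the 15 pairs. For genes whose orders are unrelated the coefficient averages 1 divided by the number of genes, which is 0.33 for 3 genes and 0.2 for 5. The coefficient was 0.28 over the 12 genes of the megakaryocyte and platelet list in the table, against 0.083 for unrelated orders. Over all 621 genes it was 0.051, against 0.0016 for unrelated orders. Coefficients over different numbers of genes therefore cannot be set directly against each other. Gp1bb ordered 11 of 15 pairs as Ppbp and Alox12 did, and 9 as Gng11 did. Thbs1 ordered 6 of 15 pairs as Ppbp and Gp1bb did, and 4 as Alox12 and Gng11 did. Correlation coefficients between the members are not given, since the libraries fell into a high and a low set for Ppbp, Alox12 and Gng11, and single libraries set the range of Gp1bb and Thbs1.

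The levels of Alox12 and Ppbp also moved in nearly fixed proportion. The ratio of Alox12 to Ppbp in FPKM lay between 0.0915 and 0.120 over the 6 libraries, a range of 1.31 times, although Ppbp itself ranged over 4.18 times and Alox12 over 3.84 times. The ratio of Gng11 to Ppbp ranged over 1.95 times, with KO-BM8 the highest. The ratio of Gp1bb to Ppbp ranged over 14.2 times, and that of Thbs1 to Ppbp over 11.9 times. In both of these the highest ratio was in WT-BM7, at 1.22 for Gp1bb and 7.91 for Thbs1. Cald1, which is outside the megakaryocyte and platelet list, kept as close a proportion to Ppbp as Alox12 did. It was at 2.63, 0.898 and 1.03 FPKM in the KO libraries and at 3.33, 3.35 and 1.29 FPKM in the WT libraries. A nearly fixed proportion to Ppbp was thus not particular to genes of that list.

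**Figure D3:**
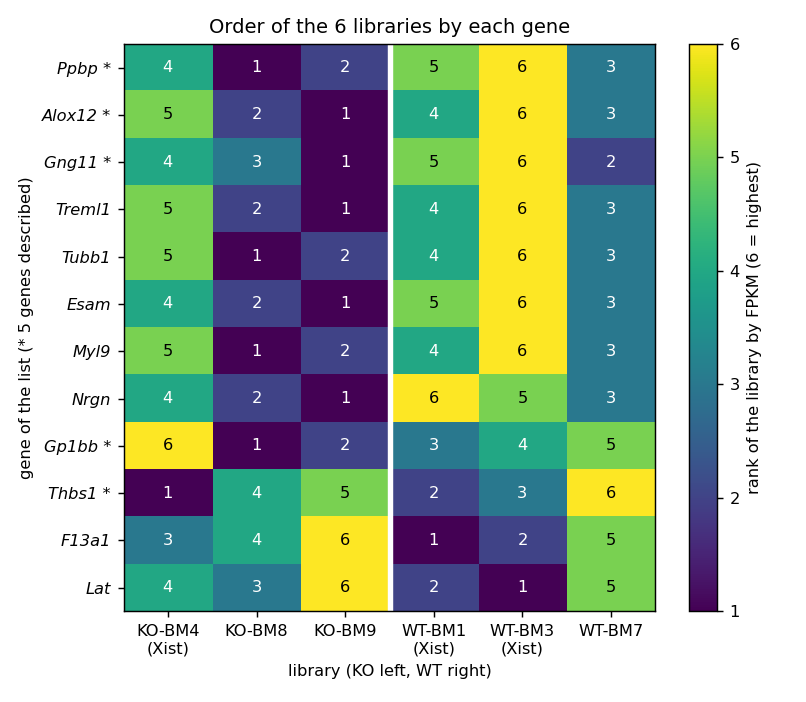
Rank of each library by FPKM (colour and number, 6 the highest) for the 12 genes of the megakaryocyte and platelet list in the table, with KO libraries on the left and WT libraries on the right. Ppbp, Alox12, Gng11, Treml1, Tubb1, Esam, Myl9 and Nrgn rank the 3 libraries with Xist above the others, whereas Gp1bb, Thbs1, F13a1 and Lat do not.

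Ppbp averaged 28.8 FPKM in the 3 libraries with Xist and 9.56 FPKM in the other 3, a ratio of 3.01. This ratio was 2.99 for Alox12, 2.39 for Gng11, 1.29 for Gp1bb and 0.403 for Thbs1. For Ppbp, Alox12 and Gng11, each library with Xist was above each of the others, as in 28.2% of the 621 genes. For Thbs1 each was below, as in 9.5% of the 621 genes. Xist itself was not used to choose the genes. For Ppbp, Alox12 and Gng11, however, KO and WT libraries differed 2-fold only between a library with Xist and another without. The 2-fold rule of the table therefore bears on their levels across this division and on the shares of the 621 genes. The division into these libraries was also known when the genes were chosen, so these values are descriptive.

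Within each of these sets of libraries, Ppbp was lower in KO. Ppbp was at 24.6 FPKM in KO-BM4 and at 29.1 and 32.5 FPKM in WT-BM1 and WT-BM3, and at 7.78 and 9.30 FPKM in KO-BM8 and KO-BM9 and 11.6 FPKM in WT-BM7. The difference of KO minus WT in log2(FPKM + 1) was -0.31 with Xist and -0.40 without. Thbs1 was likewise lower in KO in both sets, by differences of -0.35 and -1.74. Alox12 overlapped between the genotypes in the libraries with Xist, with a difference of -0.09 there and -0.17 in the others. Gng11 was lower in KO-BM4 than in WT-BM1 and WT-BM3, at -0.44, and overlapped in the other libraries, at -0.03. For Gp1bb the difference was 2.30 in the libraries with Xist and -2.56 in the others. Each set holds a single library of 1 genotype, so none of these values has a replicate check. Genes lower in KO in both sets were not counted over the 621 genes, of which 61.8% had a lower mean log2(FPKM + 1) in KO. When limma was fitted with a term for Xist, the log2 fold change was -0.36 for Ppbp, -0.13 for Alox12, -0.24 for Gng11, -0.13 for Gp1bb and -1.04 for Thbs1, and none was past the threshold.

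Of 63 genes in a megakaryocyte and platelet list, 12 were in the table, the 5 above and 7 others, and 0 of the 7 passed the limma test. Of the 7 others, 5 had a lower and 2 a higher mean in KO, with a median log2 fold change of -0.50. Tubb1, the beta-tubulin of the platelet marginal band, was at 6.79, 1.88 and 2.35 FPKM in KO-BM4, KO-BM8 and KO-BM9, and at 5.01, 8.91 and 2.59 FPKM in WT-BM1, WT-BM3 and WT-BM7. Treml1, a receptor of platelet alpha granules, was at 3.02, 1.92 and 1.77 FPKM in the KO libraries and at 3.01, 5.10 and 2.46 FPKM in the WT libraries. Tubb1 and Treml1 thus had the same high and low libraries as Ppbp, and Treml1 ordered all 15 pairs of libraries as Alox12 did. Tubb1 ordered 14 of 15 pairs as Ppbp did.

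Nrgn, the calmodulin-binding protein neurogranin of platelets and neurons, was at 11.1, 9.11 and 9.10 FPKM in the KO libraries and at 23.2, 16.5 and 9.60 FPKM in the WT libraries. Esam, an adhesion molecule of platelets and endothelial cells, was at 2.53, 1.04 and 0.870 FPKM in the KO libraries and at 3.72, 4.31 and 1.24 FPKM in the WT libraries. Myl9, a myosin light chain of megakaryocytes and smooth muscle, was at 7.34, 2.21 and 2.25 FPKM in the KO libraries and at 6.79, 8.18 and 3.31 FPKM in the WT libraries. All 3 were higher in each library with Xist than in the others. F13a1, the catalytic subunit of coagulation factor XIII in platelets and monocytes, was at 119, 133 and 172 FPKM in the KO libraries and at 74.9, 118 and 166 FPKM in the WT libraries. Lat, an adaptor protein of T cells and platelets, was at 14.2, 10.6 and 16.6 FPKM in the KO libraries and at 7.51, 7.33 and 14.2 FPKM in the WT libraries. F13a1 and Lat were the 2 genes with a higher mean in KO, and F13a1 ordered 3 of 15 pairs of libraries as Ppbp did but 12 as Thbs1 did.

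The other genes of the members' families in the table were few. Among lipoxygenase and eicosanoid genes, 4 of 33 were in the table. Alox15, a lipoxygenase of eosinophils and macrophages, was at 20.6, 12.9 and 22.8 FPKM in the KO libraries and at 17.4, 31.9 and 22.2 FPKM in the WT libraries, and did not follow Alox12. Ptgs2, the inducible cyclooxygenase, was at 0.756, 3.87 and 3.08 FPKM in the KO libraries and at 0.878, 0.926 and 2.80 FPKM in the WT libraries, low where Alox12 was high. Ptgis, the prostacyclin synthase of vessel walls, was at 1.21, 0.236 and 0.335 FPKM in the KO libraries and at 1.80, 1.33 and 0.253 FPKM in the WT libraries, high in the same libraries as Alox12. Of 22 CXC chemokine and receptor genes 4 were in the table, and the 3 besides Ppbp had positive log2 fold changes, with 0 past the limma threshold. Cxcr5, the receptor that guides B cells to follicles, was at 9.30 to 12.3 FPKM in the KO libraries and at 4.95 to 8.84 FPKM in the WT libraries, without overlap, unlike Ppbp (log2 fold change 0.67, adjusted p = 0.598 from limma). Cxcl2, a neutrophil-attracting chemokine, was at 1.59, 5.93 and 10.4 FPKM in the KO libraries and at 0.480, 1.1 and 9.08 FPKM in the WT libraries, low where Ppbp was high. Cxcr1, a chemokine receptor of neutrophils, had a log2 fold change of 0.03, whereas its mean FPKM was 1.56 in KO BM and 1.72 in WT BM. Of 30 G-protein subunit genes Gng11 was the single entry. Of 15 thrombospondins and their receptors, Thbs1 and the proteoglycan gene Sdc1 were present, with Sdc1 at 5.24, 6.74 and 4.35 FPKM in the KO libraries and at 13.3, 9.75 and 5.10 FPKM in the WT libraries. Of 32 coagulation and fibrinolysis genes 3 were present, F13a1, Tfpi and Thbd. Thbd encodes the endothelial anticoagulant receptor thrombomodulin. It was at 9.67, 9.54 and 7.98 FPKM in the KO libraries and at 19.8, 14.8 and 8.42 FPKM in the WT libraries. The genotypes overlapped in Thbd (log2 fold change -0.54, adjusted p = 0.598 from limma), and each library with Xist was above the others.

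Markers of vessel and bone cells moved with Ppbp, Alox12 and Gng11. Of 24 endothelial markers 12 were in the table. Against 28.2% of all 621 genes, 11 of the 12 were higher in each library with Xist. Their summed level was 31.7 to 58.2 FPKM in KO BM and 33.9 to 66.0 FPKM in WT BM, and 58.2 to 66.0 FPKM with Xist against 31.7 to 35.2 FPKM without. Of 23 osteoblast and chondrocyte markers 15 were in the table, all higher in each library with Xist, with a summed level of 133 to 730 FPKM in KO BM and 123 to 1526 FPKM in WT BM. None of these markers was at 0 in any library. Col1a1, a chain of type I collagen, ranged over 20.5 times between libraries, against 4.18 times for Ppbp. The part of these cells in the levels of Ppbp, Alox12 and Gng11 was not tested.

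Immediate-early and stress genes, which are induced within minutes of a stimulus, moved the other way. Of 28 such genes 7 were in the table. Against 9.5% of all 621 genes, 6 of the 7 were lower in each library with Xist, as Thbs1 was. Their summed level was 205, 366 and 487 FPKM in KO-BM4, KO-BM8 and KO-BM9, and 186, 213 and 418 FPKM in WT-BM1, WT-BM3 and WT-BM7. Thbs1 in WT-BM7 stood 3.23 times above its next highest library, KO-BM9, whereas the summed level of these genes was higher in KO-BM9 than in WT-BM7. Most of both sums came from Fos and Dusp1, at 251 and 124 FPKM in KO-BM9 and at 233 and 104 FPKM in WT-BM7. The part of the immediate-early and stress genes in the level of Thbs1 was not tested. Of 20 erythroid genes 4 were in the table, with a summed level of 2157 to 2239 FPKM in KO BM and 1630 to 2885 FPKM in WT BM, and none of the 4 followed the division by Xist.

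**Figure D4:**
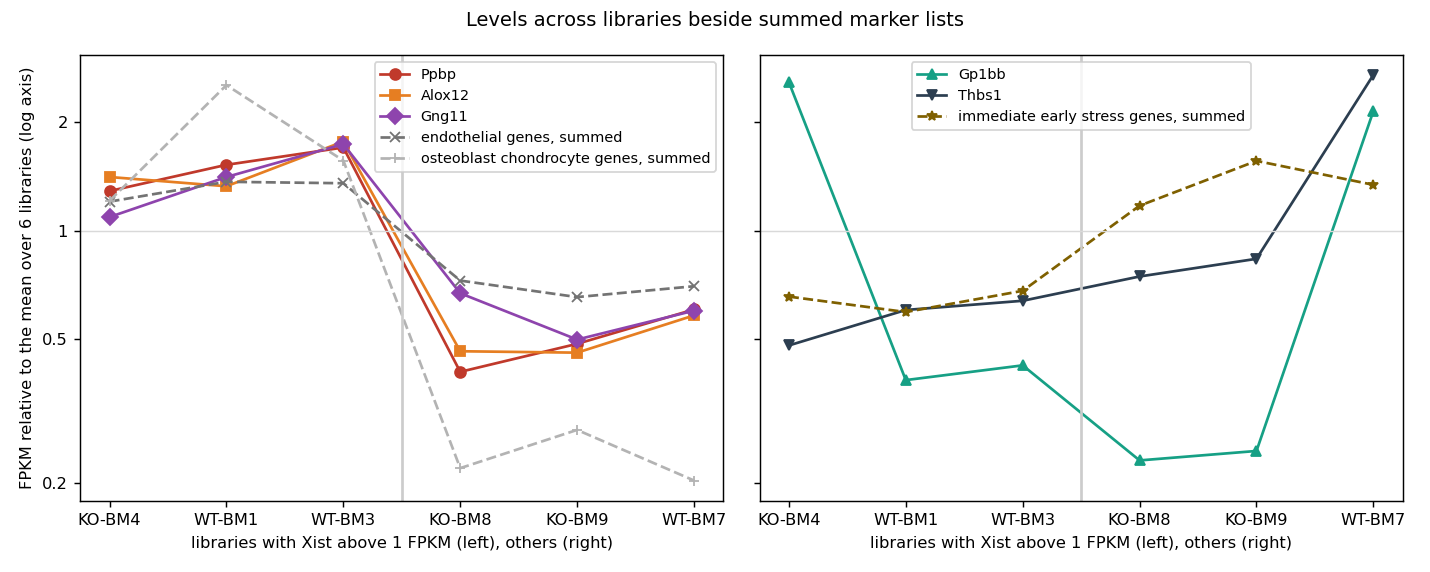
FPKM of each gene, or summed FPKM of a marker list (dashed), relative to its mean over the 6 libraries (y axis, log scale), with the libraries with Xist left of the grey line. Ppbp, Alox12 and Gng11 lie above 1 in the libraries with Xist and below 1 in the others, together with the endothelial and osteoblast lists, whereas Gp1bb and Thbs1 do not; lines only link the points of an item.

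The genes of the table most like each member were taken by Pearson's r of log2(FPKM + 1) over the 6 libraries, as a description. For Ppbp they were Cald1 (r = 0.997), Fbln5 (0.996), Ltbp2 (0.995), Epas1 (0.992) and Bmp4 (0.992), which are known from contractile, matrix-forming and vessel cells, and 124 genes had an r over 0.9. For Alox12 they were Bmp4 (0.995), Myl9 (0.991), Ltbp2 (0.989), Igfbp7 (0.987) and Fbln5 (0.985). For Gng11 they were Esam (0.989), Prkcdbp (0.988), Npr1 (0.987), Emcn (0.986) and S100a16 (0.983), of which Esam and Emcn are endothelial markers. All of these share the same 6 libraries, which fall into a high and a low set. Gp1bb and Thbs1 had far fewer like genes, 3 and 4 with an r over 0.9. Nearest to Gp1bb were Fignl1 (0.927), the clock gene Per1 (0.923), Mir290a (0.907), Ddit4 (0.844) and Klk1 (0.821). Fignl1 was at 25.4, 10.4 and 10.6 FPKM in the KO libraries and at 9.64, 7.79 and 27.6 FPKM in the WT libraries, high in KO-BM4 and WT-BM7 as Gp1bb was. Nearest to Thbs1 were Rps27 (0.951), Ldhc (0.947), Acta2 (0.945), Lipg (0.902) and Mir6965, all highest in WT-BM7. Rps27, a ribosomal protein gene, was at 5.55 to 6.76 FPKM in the KO libraries and at 5.97, 5.14 and 1044 FPKM in the WT libraries, so that this likeness rests on WT-BM7. The table also holds Rps27rt, with a log2 fold change of 2.02 against -2.29 for Rps27. How reads were assigned between Rps27 and Rps27rt is not stated, so the FPKM of Rps27 is uncertain. Nearest to the mean of all 5 standardized members were Cox6a2 (0.961), Mir6236 (0.939), Myl9 (0.915), Zfp426 (0.880) and Palld (0.876).

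Promoter sequences from RefSeq on GRCm38.p6 were found for 3 of the 5 genes. They are shown because Ppbp and Alox12 were high in the same libraries and Gp1bb was not, each from 250 bases before the start to 50 after it, 5′ to 3′ on the strand of the gene. Alox12 has 3 RefSeq transcripts, and the start used for it lies inside the gene bounds given above rather than at their end. Capitals mark 3 motifs. The GATA motif was AGATAA or else AGATAG, or again TGATAA or else TGATAG, on either strand. The ETS motif was AGGAAG or else CGGAAG on either strand. Factors of the GATA and ETS families are known from megakaryocyte genes. The TATA box was TATAAA on the strand of the gene. No match overlapped another.
Ppbp, plus strand, chr5:90768268-90768567: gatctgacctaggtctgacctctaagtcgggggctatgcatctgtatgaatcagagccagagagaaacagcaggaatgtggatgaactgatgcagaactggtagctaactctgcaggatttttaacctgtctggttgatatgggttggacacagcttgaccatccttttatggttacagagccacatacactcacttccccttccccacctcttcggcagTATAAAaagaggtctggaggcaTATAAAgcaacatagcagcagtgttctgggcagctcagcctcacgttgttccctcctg
Alox12, minus strand, chr11:70255321-70255620: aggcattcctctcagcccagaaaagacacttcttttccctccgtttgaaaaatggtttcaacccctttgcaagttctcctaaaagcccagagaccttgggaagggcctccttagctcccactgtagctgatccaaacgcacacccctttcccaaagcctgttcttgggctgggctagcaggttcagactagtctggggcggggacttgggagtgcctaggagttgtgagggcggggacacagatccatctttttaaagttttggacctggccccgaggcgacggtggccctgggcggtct
Gp1bb, minus strand, chr16:18622354-18622653: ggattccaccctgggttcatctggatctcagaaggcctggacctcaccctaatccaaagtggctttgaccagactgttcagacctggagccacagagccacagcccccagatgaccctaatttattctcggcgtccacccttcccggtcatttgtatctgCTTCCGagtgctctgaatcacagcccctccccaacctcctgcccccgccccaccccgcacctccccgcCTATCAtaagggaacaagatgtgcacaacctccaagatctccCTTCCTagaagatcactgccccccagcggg

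The Gp1bb window held a GATA motif on the opposite strand at position -22 from the start and ETS motifs on the opposite strand at positions -90 and 21. The Ppbp window held the TATA box at positions -30 and -8, and neither of the other motifs. The Alox12 window held none of the 3. No window was examined for Gng11 or Thbs1. Of 32851 promoter windows of the same length, 29.8% held the GATA motif, 46.5% the ETS motif and 8.32% the TATA box. A match in letters does not show a bound site.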

How the data were processed

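Poly(A)-selected RNA of BM cells was sequenced in 3 KO and 3 WT libraries. The authors aligned reads to mm10 with HISAT2 version 2.0.5 and deposited FPKM per gene and library from StringTie version 1.3.3b. StringTie estimates FPKM from read coverage, reads were not used here, and sequencing depth is unknown. The authors also deposited log2 values, normalized further by an unstated step and differing from log2(FPKM + 1) by at most 0.544. Columns with the authors' own folds between libraries, and the enrichment tables, were not used.

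KO was set against WT on log2(FPKM + 1) with limma version 3.58.1 (R version 4.3.3), using an intensity trend and Benjamini-Hochberg adjustment over 621 genes above 0 FPKM in at least 3 libraries, at a threshold of 0.05. Simulated data with known changes were used to test this step. Their noise was drawn independently for each gene and library, so they cannot show how the step behaves with the differences between libraries seen here. Its variance prior (17.8 degrees of freedom beside 4 residual) was estimated from selected genes. Whether each library is from a mouse of its own is not stated. Xist was present in some libraries and near 0 in others of each genotype, so not all libraries of a genotype share an animal, but part of the spread behind the p-values may be technical. Other steps used Python version 3.11.15 with pandas version 2.3.3. Groups were taken from sample titles.

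The members, lists and division by Xist were chosen with earlier results of these data known. Named genes are the 5 members, all others of the megakaryocyte and platelet list, the 2 of highest mean in each other list where their values are given, and the 5 most like each member. Tfpi, Ptgis, Cxcl2, Cxcr1, Rps27rt and Sept5 were named after values were seen. Alternatives comprised leaving the filter out, filtering at a mean of 1 FPKM, adding 0.1 rather than 1, quantile and median scaling, no trend, the authors' log2 values, a term for Xist above 1 FPKM, and leaving out each library. Coordinates of all 5 members come from RefSeq on GRCm38, which is the mm10 assembly.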

Additional observations from a re-analysis of the deposited data

Results flagged for a closer look

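The difference between KO and WT in Gp1bb had opposite signs in the libraries with Xist above 1 FPKM and in the others. Gp1bb was at 17.0 FPKM in KO-BM4 and at 2.55 and 2.80 FPKM in WT-BM1 and WT-BM3, which carry Xist. It was at 1.53 and 1.62 FPKM in KO-BM8 and KO-BM9 and at 14.2 FPKM in WT-BM7, which do not. The difference of KO minus WT was 2.30 with Xist and -2.56 without on log2(FPKM + 1), so that the 2 differed by 4.85. KO-BM4 and WT-BM7 are each the single library of their genotype and Xist status, so this rests on those 2 libraries, and the pattern was picked after its values were seen. A fitted interaction term would have no replicate of either library behind it, so no p is given. The overlap of Gp1bb with Sept5 was not tested as a source of it.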

How the results depend on the processing

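No paired analysis was possible because KO and WT libraries share no replicate number. The log2 fold changes of Ppbp, Alox12 and Gng11 kept their sign and stayed short of the threshold under all 14 alternatives, but not their size. Leaving the filter out changed nothing, since all 621 genes passed it. Filtering at a mean of 1 FPKM and fitting without the trend cannot change a fold change, so these settings do not test its sign. With Xist above 1 FPKM as a term the fold changes of Ppbp, Alox12 and Gng11 were -0.36, -0.13 and -0.24, and that of Thbs1 was -1.04. Leaving out each library in turn gave -1.29 to -0.52 for Ppbp, -0.78 to -0.22 for Alox12, -0.91 to -0.29 for Gng11, -1.19 to 0.42 for Gp1bb and -0.95 to 0.11 for Thbs1. Gp1bb reversed without KO-BM8 (0.22), without KO-BM9 (0.20) and without WT-BM7 (0.42), and Thbs1 without WT-BM7 (0.11). The cause was not tested. The smallest adjusted p of any member under any alternative was 0.109, for Ppbp. The number of genes past the threshold was 0 to 1 without each library, with 1 gene, not a member, without KO-BM4 and 1 without KO-BM9, and 0 under every other alternative. Genes whose genotypes do not overlap numbered 45, and 63 to 415 without each library. Without WT-BM7, 61 genes were higher and 191 lower in KO at an unadjusted p under 0.05. Correlations between members were not run, since the libraries fall into separate sets. The number of libraries, 3 in each genotype, limits all comparisons.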
